A study of Mus musculus with 12 samples.

Results

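B-cell acute lymphoblastic leukaemia (B-ALL) carrying the P80R change in PAX5 was compared with Pax5-deficient lymphoid progenitors across all genes of the deposited table. The comparison used 8 of the 12 libraries of the series, which were assigned to groups by their labels. The gene lists used below were chosen with earlier results of these data known. The P80R B-ALL group (4 libraries) held GFP+ PAX5 P80R leukaemic cells sorted from 4 primary recipients, numbered 1300, 1301, 1302 and 1308. The Pax5 KO group (4 libraries) held cells of the CLP/pre-pro-B stage (common lymphoid progenitors and the earliest B-lineage precursors) sorted from Pax5-/- fetal livers. The remaining 4 libraries, pro-B/pre-BI cells from Pax5+/+ fetal livers (Pax5 WT), are one stage further along the B lineage and are given beside the comparison as levels, with no test. The labels do not describe how P80R was introduced, which cells carried an intact Pax5 allele, the tissue from which the leukaemic cells were taken, or the age of the recipients. They also do not say whether the 4 Pax5 KO libraries came from separate animals, so p-values measure only the spread between these samples. Genotype, differentiation stage, fetal against transplanted tissue and leukaemia all differ between the groups, and their shares in any difference cannot be told apart.

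Pax5 is the transcription factor that commits lymphoid progenitors to the B lineage: it switches on genes of the pre-B-cell receptor and of antigen-receptor signalling, and it switches off genes of other lineages. Without it, fetal liver cells enter the earliest B-lineage stages under the factors E2A (gene Tcf3) and Ebf1, and stop there. The P80R change lies in the paired domain, the part of the protein that binds DNA, and is a recurrent mutation of human B-ALL.

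Pax5 itself was low in the leukaemic cells. Its deposited values, which are read counts divided by 1 factor per library, were 847, 1146, 1316 and 255 in recipients 1300, 1301, 1302 and 1308. They were 229.9 to 267 in the 4 Pax5 KO libraries and 6194 to 7315 in the 4 Pax5 WT libraries. Recipient 1308 lay inside the Pax5 KO range, the other three recipients lay above it, and all 4 lay far below Pax5 WT. The B-ALL mean was 13.2% of the Pax5 WT mean, and the Pax5 KO mean was 3.75%. Between B-ALL and Pax5 KO the log2 difference was 1.58 ± 0.46 (SE), adjusted p = 0.0252 (limma on log2 of the value plus 1, Benjamini-Hochberg over all genes tested). This call was lost when any 1 Pax5 KO library was left out, or recipient 1300, 1301 or 1302, with adjusted p between 0.0531 and 0.0662. The values count all reads assigned to the gene, so they do not separate a P80R transcript from an unaltered one. Reads from a disrupted allele also count. Whether P80R transcripts were assigned to this gene is not known, since the labels do not describe how P80R was introduced.

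Of 11914 genes tested (those reaching 10 in no fewer than 4 of the 8 libraries), 2127 were higher in P80R B-ALL (17.9% of those tested) and 2525 were lower (21.2%), at an adjusted p under 0.05. In either direction 39.0% of the genes passed. The 4 leukaemias varied far more than the 4 Pax5 KO libraries: the median SD per gene was 0.46 on the log2 scale in B-ALL and 0.11 in Pax5 KO. Depth was 24914250 to 29386256 reads per library in B-ALL and 36871775 to 43513852 in Pax5 KO. Differences of at least 4 on the log2 scale were found for 300.0 higher and 171 lower genes. The median over all genes was -0.12 on the deposited scale. Of the calls 45.7% were higher here. With TMM factors, which change the scaling alone, 52.1% were higher (2342 higher, 2151 lower), and the median over all genes moved up by 0.075. On the recovered reads, where scaling and model change together, 58.0% were higher with edgeR (2509 higher, 1820.0 lower) and 57.2% with DESeq2 (2903 higher, 2173 lower), and the median moved up by 0.17 and 0.19. Each list count and list median should be read against the shares called and the median over all genes. On simulated data with the unequal spread of these groups the fit made more false calls than its threshold allows, so calls near the threshold are less certain than their adjusted p states.

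**Figure D1:**
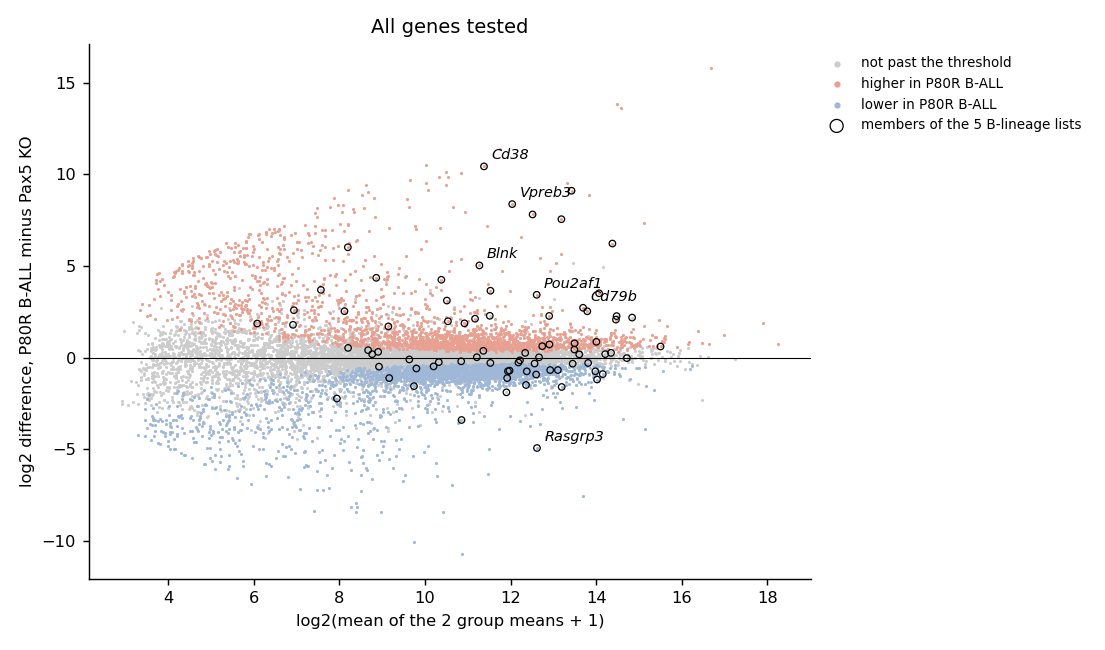
Difference between P80R B-ALL and Pax5 KO (vertical axis, log2) against the mean level (horizontal axis, log2) for each of the 11914 genes tested. Genes past the threshold are coloured by direction, and circles mark members of the 5 B-lineage lists, of which 27 were higher and 12 were lower.

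Most B-lineage genes were present in the leukaemias, and nearly as many in Pax5 KO. Of 84 B-lineage genes measured, 78 could be tested. Of these, in 5 lists (transcription factors, pre-B-cell receptor and signalling, V(D)J recombination, early surface and cytokine receptors, later B-cell genes), 67 reached a value of 100 in all 4 B-ALL libraries. Over all genes tested this share was 75.2%. In Pax5 KO 63 of the 78 reached that value in all 4 libraries. Of the 78 tested members, 27 were higher in B-ALL and 12 were lower, against 17.9% and 21.2% of all genes, with a median log2 difference of 0.34. Leaving out recipients 1300 and 1308 together gave 37 higher and 17 lower. Rises were most numerous in the receptor and later B-cell lists, and few in those of transcription factors and V(D)J recombination.

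**Figure D2:**
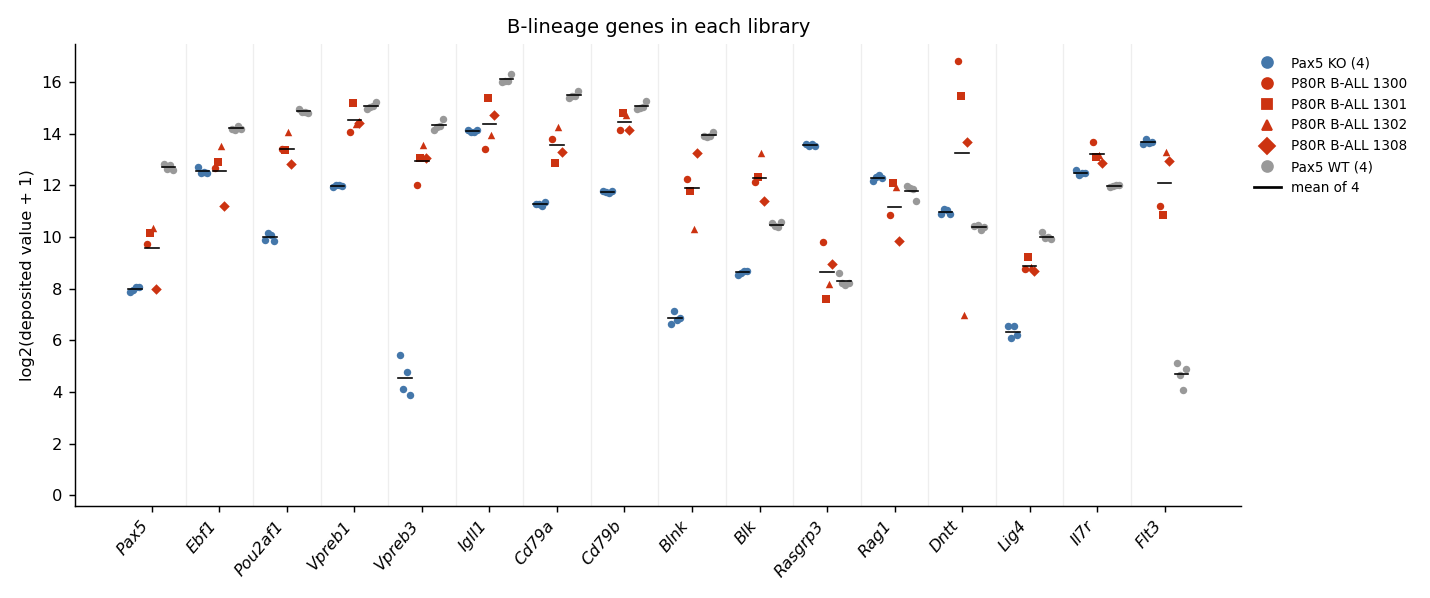
Log2 of the deposited value plus 1 for 16 B-lineage genes in every library of the 3 groups, with marker shapes for the 4 recipients and a line at each group mean. The B-ALL points sit between Pax5 KO and Pax5 WT for Pou2af1, Cd79a, Cd79b, Blnk and Vpreb3, and above both for Blk. For Ebf1 and Igll1 they are spread on both sides of the Pax5 KO points.

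The pre-B-cell receptor is built from an immunoglobulin heavy chain, the surrogate light chain (to which Vpreb1 and Igll1 belong) and the signalling pair Cd79a and Cd79b. Of 17 tested genes of this receptor and its signalling chain, 7 were higher and 4 were lower in B-ALL, with a median of 0.53. Over all genes 17.9% were higher and 21.2% lower. Heavy chain genes were not analysed here. The largest rises of this list were Vpreb3 and Blnk, and both hold the same short motif before their start. In the RefSeq promoter table (GRCm38.p6), the 250 bases before the start of Vpreb3 (chr10:75948050-75948299, plus strand) and of Blnk (chr19:40994222-40994471, minus strand) each hold 1 octamer, the binding motif of the Oct factors whose B-cell co-activator is encoded by Pou2af1. They are printed 5′ to 3′ on the gene's strand with the octamer in capitals.
Vpreb3: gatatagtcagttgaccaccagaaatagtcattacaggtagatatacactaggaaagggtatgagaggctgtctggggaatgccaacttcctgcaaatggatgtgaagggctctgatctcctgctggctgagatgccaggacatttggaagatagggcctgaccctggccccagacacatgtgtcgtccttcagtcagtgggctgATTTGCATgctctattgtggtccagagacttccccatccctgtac
Blnk: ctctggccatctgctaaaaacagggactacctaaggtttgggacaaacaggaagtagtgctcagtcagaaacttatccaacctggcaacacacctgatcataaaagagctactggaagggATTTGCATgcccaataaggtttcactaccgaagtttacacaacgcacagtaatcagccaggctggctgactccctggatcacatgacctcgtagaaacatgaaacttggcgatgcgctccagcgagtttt
The octamer lies 37 bases before the start of Vpreb3 and 122 bases before that of Blnk. It was searched as ATTTGCAT on both strands, and both the motif and these 2 genes were chosen after the expression values were seen. Any part of the octamer in these rises was not tested. The octamer was found in 1.6% of all 32851 windows of that length. The 14 list members that have a window hold 16 windows, and 2 of these had an octamer, those of these same genes. No octamer was found in the Cd79a window. The core of the motif bound by Ebf1, CCCNNGGG on both strands, was found in 3 of the 16 windows (Fyn, Igll1 and Vav1) and in 11.8% of all windows. Such a match is a run of letters and not a measured binding site.

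Vpreb3, a component associated with the pre-B-cell receptor, read 4126, 8591, 12228 and 8588 in the 4 B-ALL libraries and 13.7 to 41.9 in Pax5 KO. All 4 leukaemias were far above every Pax5 KO library, and their mean was 40.8% of the Pax5 WT mean. The log2 difference was 8.38 ± 0.42 (SE), adjusted p = 1.51e-05. Blnk, the adaptor that links the receptor to its downstream kinases, read 4806, 3491, 1278 and 9723 in B-ALL against 99.0 to 139.7 in Pax5 KO, with a log2 difference of 5.03 ± 0.52 (SE), adjusted p = 0.000361. Its level differed several-fold among the leukaemias, highest in 1308 and lowest in 1302, yet no value overlapped Pax5 KO. Pax5 WT libraries held 15043 to 16933.

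Cd79b and Cd79a, the signalling chains of the receptor, rose by lesser amounts. Cd79b read 18111, 28744, 27324 and 18143 in B-ALL and 3334 to 3482 in Pax5 KO (2.72 ± 0.18 (SE), adjusted p = 4.27e-05), which brought it to 67.2% of the Pax5 WT mean. Cd79a read 14008, 7485, 19767 and 10039 against 2343 to 2626 (2.27 ± 0.27 (SE), adjusted p = 0.000549) and reached 28.0%. Both groups were fully apart for these genes, and the B-ALL libraries were below every Pax5 WT library for Cd79a. Vpreb1, the variable-like part of the surrogate light chain, read 17247, 37185, 21052 and 21904 against 3901 to 4166 (2.53 ± 0.22 (SE), adjusted p = 0.000153). Igll1, its constant-like partner, did not pass the test: it read 10812, 42896, 15583 and 27074 against 16975 to 18130.2 (log2 difference 0.26, adjusted p = 0.605), with 1300 and 1302 below the Pax5 KO range and 1301 and 1308 above it.

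Blk, a Src-family kinase of B cells, was higher in B-ALL than in either fetal group. It read 4519, 5069, 9803 and 2665 in the 4 leukaemias, 365 to 414 in Pax5 KO and 1333 to 1516 in Pax5 WT, and the log2 difference from Pax5 KO was 3.65 ± 0.33 (SE), adjusted p = 0.000221.

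The 4 members of the signalling list that fell act downstream of the receptor. Rasgrp3, an exchange factor that activates Ras, read 881, 191, 290.3 and 494 in B-ALL and 11626 to 12552 in Pax5 KO (-4.94 ± 0.40 (SE), adjusted p = 0.000135), while Pax5 WT also read only 279.8 to 383. Plcg2, the phospholipase of this pathway, read 8015, 8942, 16520.4 and 8266 against 21842 to 24070.5 (log2 difference -1.20, adjusted p = 0.00393). The kinase Syk and the exchange factor Vav1 differed by -0.75, adjusted p = 0.00747 and -0.68, adjusted p = 0.00834. In all 4 genes each leukaemia was below each Pax5 KO library.

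Among 17 tested B-lineage transcription factors, 2 were higher, 4 were lower and 11 did not pass the test, against 17.9% higher and 21.2% lower of all genes, and their median was -0.29. The higher count was 1 without Pax5 KO replicate 2, 3 or 4 or without recipient 1301, and the lower count was 7 without recipient 1308. Without recipients 1300 and 1308 together, 5 were higher and 7 were lower. Ebf1, the factor that acts with E2A to start the B program, read 6436, 7632, 11594 and 2333 in B-ALL and 5725 to 6639 in Pax5 KO. Recipients 1301 and 1302 were above the Pax5 KO range, 1308 was below it and 1300 was inside it, and the log2 difference was 0.01 ± 0.42 (SE), adjusted p = 0.981. Without recipients 1300 and 1308 the difference was 0.65 (adjusted p = 0.0198). Pax5 WT libraries held 17954 to 20222. Foxo1, which works beside Ebf1 in early B cells, read 2749, 1656, 3608 and 2823 against 3121 to 3251 and did not pass the test (log2 difference -0.29, adjusted p = 0.31).

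Pou2af1, the B-cell co-activator of the Oct factors, was the clearest rise of this list. It read 10956, 10634, 17044 and 7293 in B-ALL and 925 to 1132 in Pax5 KO, with the groups fully apart (3.43 ± 0.23 (SE), adjusted p = 5.34e-05), and its mean was 38.4% of Pax5 WT. Irf4, a factor of the pre-B-cell and plasma cell stages, read 293, 683, 2025 and 634 against 169.7 to 269 (1.70, adjusted p = 0.026). The Irf4 call was lost without Pax5 KO replicate 2, 3 or 4, or without recipient 1301, at adjusted p of 0.0531 to 0.0723. Tcf3, which encodes E2A, read 3865, 4110.2, 5409 and 3847 in B-ALL, 7937 to 8439.6 in Pax5 KO and 23515 to 26603 in Pax5 WT, so it was lowest in the leukaemias (-0.92 ± 0.14 (SE), adjusted p = 0.00148). Runx1, Mef2c and Ikzf1, factors of early lymphoid cells, were also lower, by log2 differences of -1.50, adjusted p = 0.000666, of -0.90, adjusted p = 0.00467 and of -0.68, adjusted p = 0.0115, with no overlap between the groups.

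V(D)J recombination assembles antigen-receptor genes in early B cells, with the Rag1 and Rag2 recombinase cutting the DNA and end-joining factors closing it. Of 13 tested genes, 2 were higher and none was lower, against 17.9% and 21.2% of all genes. Without recipient 1308 there were 4 higher, and without 1300 and 1308 there were 6; up to 2 were lower, without recipient 1302. Lig4, the ligase of end joining, read 431, 604, 452 and 404 in B-ALL against 66.6 to 92.1 in Pax5 KO (2.53 ± 0.25 (SE), adjusted p = 0.000305), and Hmgb2, a DNA-bending cofactor of the recombinase, rose by 0.61, adjusted p = 0.013. Rag1 read 1855, 4323, 3857 and 911 against 4580.2 to 5370.4. Each leukaemia was below each Pax5 KO library, yet the difference did not pass (-1.12 ± 0.44 (SE), adjusted p = 0.0723). It passed with all 12 libraries in the fit (adjusted p = 0.0302), with 1 weight per group (adjusted p = 0.0221), and without recipient 1301 or 1302 (adjusted p = 0.034 and 0.0428). Rag2 read 1639.5, 3273, 5589.9 and 530.0 against 1724 to 2286, spread on both sides of Pax5 KO. Dntt, the polymerase that adds untemplated bases at the joints, was the most variable: it read 115932, 45518, 127 and 12925 in recipients 1300, 1301, 1302 and 1308, against 1879.5 to 2146 in Pax5 KO. Recipient 1302 was far below Pax5 KO and the other 3 far above it, and the log2 difference was 2.26 ± 1.81 (SE), adjusted p = 0.346. Without 1302 it was 4.35 (adjusted p = 0.00165), and on the recovered reads it was 4.53 with edgeR (adjusted p = 0.0328) and 4.55 with DESeq2 (adjusted p = 0.00157).

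Of 15 tested early surface and cytokine receptor genes, 5 were higher and 3 were lower, against 17.9% and 21.2% of all genes. Cd38, an ectoenzyme of lymphoid cells, was almost absent from Pax5 KO at 0 to 6.57 and read 2998, 1083, 8433 and 8768 in B-ALL (10.44 ± 0.80 (SE), adjusted p = 0.000105). It exceeded Pax5 WT, at 672 to 824, in all 4 leukaemias. Il7r, the receptor chain for the growth factor of early B cells, read 12989, 8843, 9211 and 7427 against 5357 to 6235 (0.72 ± 0.17 (SE), adjusted p = 0.011), and all 4 leukaemias were above both fetal groups. Cxcr4, the receptor for the bone marrow chemokine Cxcl12, read 3418, 4692, 3921 and 2973 against 763 to 942 (2.12 ± 0.17 (SE), adjusted p = 0.000115). Cd24a and Tnfrsf13c, the receptor for the survival factor BAFF, also rose, by 2.07, adjusted p = 0.00383 and by 1.98, adjusted p = 0.0155. The Tnfrsf13c difference was 3.00 without recipients 1300 and 1308.

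Flt3, the cytokine receptor of multipotent and lymphoid progenitors that Pax5 normally switches off, remained expressed in the leukaemias. It read 2374, 1848, 10056 and 7957 in B-ALL, 12388 to 14303 in Pax5 KO and 15.8 to 34.0 in Pax5 WT. Recipients 1302 and 1308 were closest to Pax5 KO, 1300 and 1301 were several-fold lower, and the difference from Pax5 KO was -1.60 ± 0.52 (SE), adjusted p = 0.037. That call was lost without any 1 Pax5 KO library, without recipient 1300 or 1301, without 1300 and 1308 together, and with edgeR, at adjusted p of 0.053 to 0.0906. Ptprc, which encodes CD45, and Il2rg, the common chain shared by the IL-7 receptor, were lower, with log2 differences of -0.75, adjusted p = 0.0142 and -0.71, adjusted p = 0.0148.

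Genes that normally rise later in B-cell development were the B-lineage list with the most rises. Of 16 tested 11 were higher and 1 was lower, against 17.9% and 21.2% of all genes, with a median of 3.31. Cd52, a small surface glycoprotein of lymphocytes, read 28248, 20402, 35519 and 42566 in B-ALL, 2558 to 2913 in Pax5 KO and 3046 to 4072 in Pax5 WT (3.51 ± 0.21 (SE), adjusted p = 2.96e-05). Il2ra, the alpha chain of the IL-2 receptor and a marker of pre-B cells, read 1863, 2947, 3725 and 1965 against 265 to 337 (3.11 ± 0.24 (SE), adjusted p = 9.46e-05). Cd52 and Il2ra were above both fetal groups in every leukaemia. Cd22, an inhibitory co-receptor, read 4190.2, 1539, 4053 and 2584 against 726 to 844 (1.87 ± 0.30 (SE), adjusted p = 0.00204), with Pax5 WT at 4618 to 6071.

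Bank1, a B-cell scaffold protein, read 255, 909, 8180.2 and 1075 against 56.3 to 70.8 (4.25, adjusted p = 0.00608), mostly in recipient 1302. MHC class II genes were raised in all 4 leukaemias but above all in 1308: H2-Aa read 617, 573, 1499 and 85258, against 0 to 26.3 in Pax5 KO and 27.7 to 49.0 in Pax5 WT (9.11, adjusted p = 0.00382). H2-Ab1 read 1249, 1669, 1950.2 and 69641 against 9.90 to 37.8 (7.56, adjusted p = 0.00212). In 1308 the plasmacytoid dendritic cell markers also summed to 273630.3, against 17998 to 23754 in the other leukaemias, and the macrophage markers to 59388, against 8277 to 11735. In all 4 leukaemias the macrophage sums were above those of Pax5 KO, at 1254 to 1516. The part of these cell types in the MHC class II values was not tested, with or without 1308. Without 1308 the differences were 7.43 for H2-Aa (adjusted p = 0.00128) and 6.19 for H2-Ab1 (adjusted p = 9.71e-05). Ms4a1, which encodes CD20 of mature B cells, did not reach the level needed for testing, at 0, 151, 4.96 and 685 in B-ALL and 0 to 4.11 in Pax5 KO. Ltb, which encodes a lymphotoxin chain, was the lower gene (-1.56, adjusted p = 0.0334), and this call was lost without any 1 library other than recipient 1308 and with edgeR and DESeq2, at adjusted p of 0.0575 to 0.117.

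Genes that Pax5 is known to activate were raised in part. Of 25 in the table, 21 could be tested, 9 were higher, 0 were lower and 12 did not pass. Of all genes, 17.9% were higher and 21.2% lower. The list median was 1.79, but 0.019 when only genes reaching 100 in 4 libraries were kept. Without recipients 1300 and 1308 the higher and lower counts of the list were 15 and 2. The summed values of this list were 114077, 98752, 163273 and 134821 in the 4 leukaemias, 80212 to 89250.1 in Pax5 KO and 273519 to 276972 in Pax5 WT. All 4 leukaemias were above every Pax5 KO library and below every Pax5 WT library. Vpreb3, Pou2af1, Blnk and Cd79a had the smallest p of this list, and their values are given above.

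Genes that Pax5 is known to repress remained expressed. Their summed values were 61834, 89965, 94649 and 153214 in B-ALL, 115569 to 116426 in Pax5 KO and 26851 to 29962 in Pax5 WT, so 1308 lay above Pax5 KO, the other 3 below it, and all 4 above Pax5 WT. Of 22 tested, 3 were higher and 6 were lower than in Pax5 KO, against 17.9% and 21.2% of all genes. The 6 lower calls became 3 with edgeR, and 3 when any 1 Pax5 KO library was left out, and the 3 higher calls became 5 without recipient 1300. Notch1, the receptor that directs progenitors to the T lineage, read 774, 1563, 2036 and 844 in B-ALL, 9586 to 11074 in Pax5 KO and 345 to 776 in Pax5 WT (-3.08 ± 0.29 (SE), adjusted p = 0.000266). Cd33, a myeloid surface receptor, read 185, 305, 437 and 854 against 2439 to 2716 (-2.73, adjusted p = 0.00134). Slamf6, a signalling receptor of lymphocytes, moved the other way, at 465, 2453, 6369 and 6377 against 5.78 to 13.7 (7.94 ± 0.79 (SE), adjusted p = 0.000298), and Prdm1, the plasma cell regulator also known as Blimp-1, was low but raised, at 36.8, 18.5, 44.7 and 66.4 against 0 to 4.29 (4.68, adjusted p = 0.00261, or 2.15 with 10 added to each value).

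**Figure D3:**
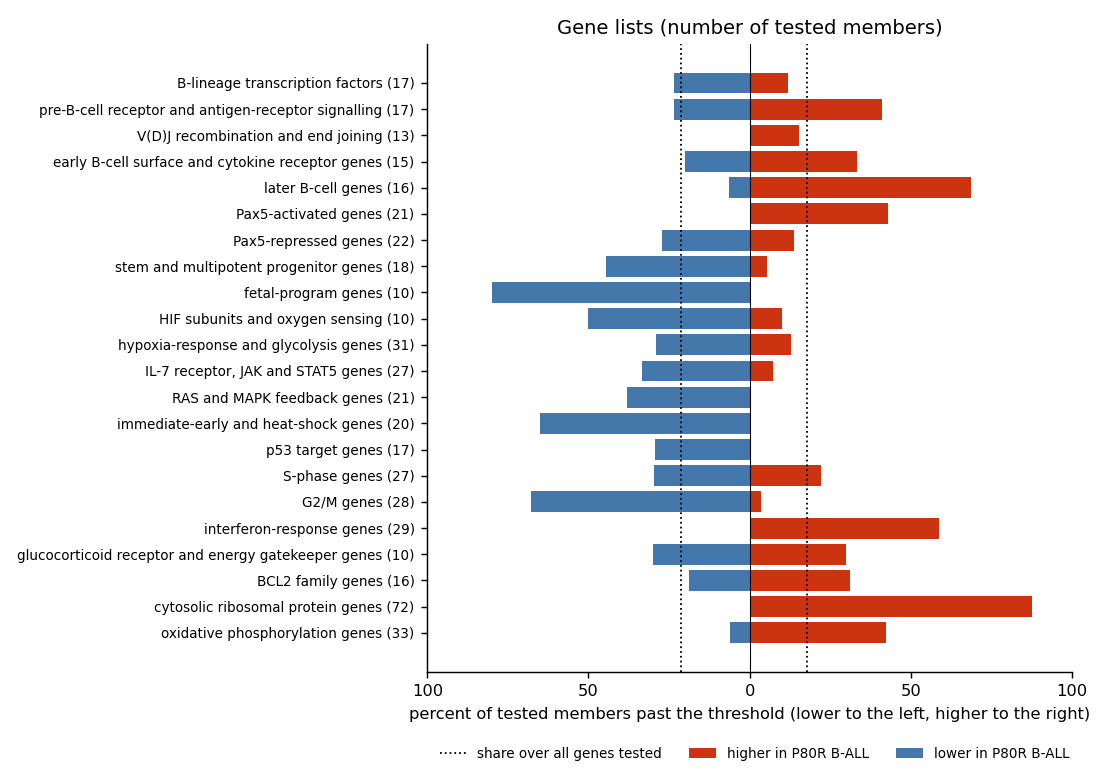
Percent of tested members past the threshold in each gene list, lower in P80R B-ALL to the left and higher to the right, with dotted lines at the shares over all genes tested (21.2% lower, 17.9% higher). Later B-cell, interferon-response and ribosomal protein genes extend to the right, and fetal-program, immediate-early and G2/M genes extend to the left.

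Most tested fetal-program genes and several genes of stem and multipotent progenitors were lower in the leukaemias. Of 18 tested stem and progenitor genes 8 were lower and 1 was higher, against 21.2% and 17.9% of all genes. Their median was -1.39, and 9 did not pass. The summed values of this list were 28144, 22691, 39014 and 60648 in the 4 leukaemias, 42584 to 47177 in Pax5 KO and 10779 to 13915 in Pax5 WT, so 1308 was above Pax5 KO, the other 3 below it, and all 4 above Pax5 WT. The list median was -0.66 with edgeR and -0.65 with DESeq2. Of 10 fetal-program genes 8 were lower and 0 higher (median -4.47, or -3.33 with genes at 0 set to 3 reads per library). Cd34, the surface marker of stem and progenitor cells, read 25.0, 19.7, 0 and 5.54 in B-ALL, 2442 to 2884 in Pax5 KO and 3.00 to 10.3 in Pax5 WT (-8.45 ± 0.91 (SE), adjusted p = 0.000414). Hoxa7 and Hoxa9, homeobox factors of progenitors, read 0, 3.69, 0 and 11.1 and 2.63, 7.38, 0 and 18.0 in B-ALL, against 604 to 718 and 271 to 339 in Pax5 KO. Both were near 0 in every leukaemia and in Pax5 WT, with log2 differences of -7.91, adjusted p = 0.000326 and of -5.89, adjusted p = 0.00118. Cd27, a receptor of early lymphoid progenitors, read 17.1, 24.6, 37.2 and 217 against 2254 to 2501 (-5.73, adjusted p = 0.0006).

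Hmga2, a chromatin protein of fetal stem cells, had the largest fall of all genes named by the rule. It read 7.89, 0, 0 and 1.38 in B-ALL against 3447 to 4099 in Pax5 KO (-10.75 ± 0.67 (SE), adjusted p = 3.58e-05), and Pax5 WT also read only 9.89 to 20.0. Lin28b, the RNA-binding regulator of fetal lymphopoiesis, read 0, 0, 0 and 13.8 in B-ALL, 599.5 to 774 in Pax5 KO and 172 to 316 in Pax5 WT (-8.41 ± 0.88 (SE), adjusted p = 0.00036). Igf2, a fetal growth factor, had 0 reads in all 4 leukaemias and 31.7 to 53.3 in Pax5 KO, which is at least 10.2-fold lower when 3 reads per library are allowed. Igf2bp3, an RNA-binding protein controlled by Lin28b, fell less, from 5485 to 5962 to 1868, 1626, 4117 and 1796 (-1.41, adjusted p = 0.0045), with 1302 the highest leukaemia.

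**Figure D4:**
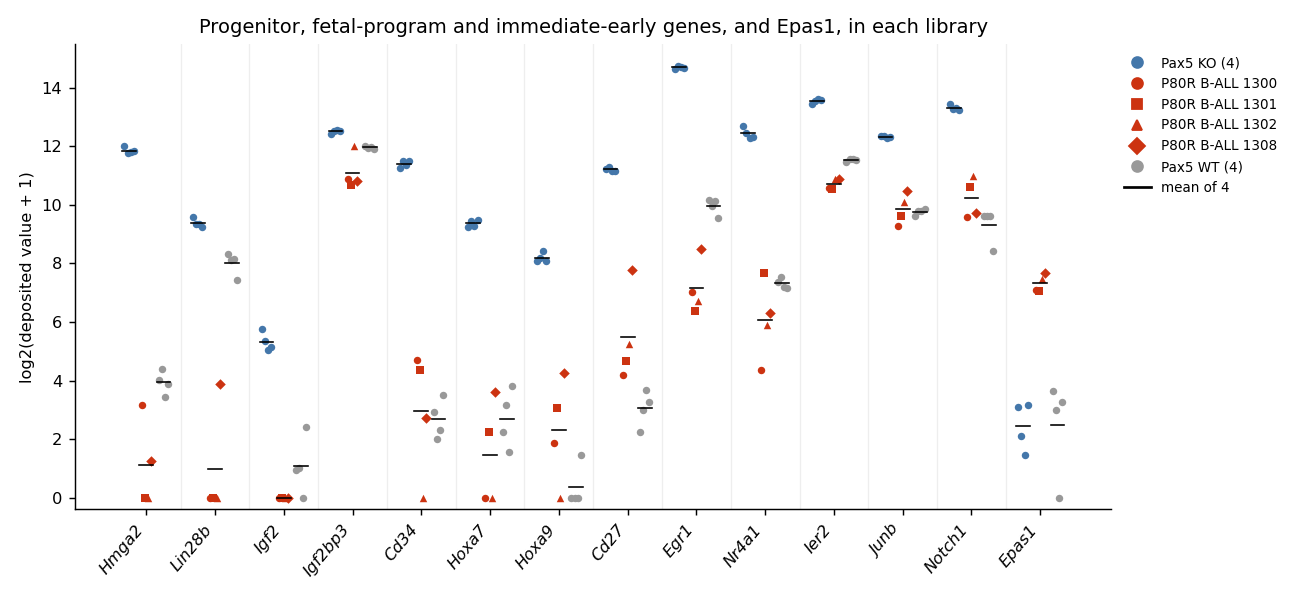
Log2 of the deposited value plus 1 for 14 genes in every library of the 3 groups, with a line at each group mean. Pax5 KO stands above every leukaemia for the first 13 genes, from Hmga2 to Notch1, and below every leukaemia for Epas1.

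Immediate-early genes, which are transcribed within minutes of signalling or of handling, were lower in the leukaemias than in Pax5 KO. With heat-shock genes they summed to 66377, 58679, 59962 and 68284 in the 4 leukaemias and 133520 to 135893 in Pax5 KO. Pax5 WT, at 59408.5 to 64592, was near the leukaemias. Of 20 tested immediate-early and heat-shock genes 13 were lower and none was higher (median -2.10), against 21.2% and 17.9% of all genes. Egr1 read 128, 82.5, 104 and 363 in B-ALL, 25244 to 27580.3 in Pax5 KO and 755 to 1144 in Pax5 WT (-7.54 ± 0.40 (SE), adjusted p = 1.94e-05). Ier2 read 1519.9, 1493, 1904 and 1878 against 11229.7 to 12529.8 (-2.83 ± 0.13 (SE), adjusted p = 9.24e-06), with the 4 leukaemias close to each other. Nr4a1, a nuclear receptor induced by antigen-receptor signals, and Junb, a subunit of AP-1, fell, with log2 differences of -6.38, adjusted p = 0.000225 and -2.45, adjusted p = 0.000292. Sorting and handling times of the groups are not in the labels, and their part in these differences was not tested.

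Several RAS and MAPK feedback genes were lower as well: 8 of 21 were lower and none was higher, against 21.2% and 17.9% of all genes. Without Pax5 KO replicate 2 or 3 there were 5 lower. Dusp1, Dusp2 and Dusp5, phosphatases that switch MAP kinases off, fell, with log2 differences of -2.19, adjusted p = 0.000737, of -1.91, adjusted p = 0.00313 and of -3.61, adjusted p = 0.00352. Dusp5 was uneven, at 214, 2380.0, 1623 and 1109.9 in B-ALL against 11658 to 12092. Ier3, an early response gene, read 42.1, 7.38, 11.2 and 51.2 against 451 to 581 (-4.58, adjusted p = 0.000891).

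In the pathway of the IL-7 receptor, the kinases of the JAK family and the STAT5 factors, 2 of 27 genes were higher and 9 were lower. Over all genes 17.9% were higher and 21.2% lower. Without any 1 Pax5 KO library 2 or 3 were lower, and with edgeR 4. Il7r was one of the 2 higher genes, and Stat5b and Stat5a were among the lower ones, at -0.90, adjusted p = 0.0107 and -0.50, adjusted p = 0.0124. The Stat5a call was lost without Pax5 KO replicate 2 (adjusted p = 0.0531) and with 1 weight per group (adjusted p = 0.0639).

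Epas1 encodes Hif2a, an oxygen-regulated factor named in the title of the series. It read 134, 132, 176 and 205 in B-ALL, 1.71 to 7.95 in Pax5 KO and 0 to 11.3 in Pax5 WT. All 4 leukaemias were within a narrow range above all 8 fetal libraries, and the difference from Pax5 KO was 4.87 ± 0.53 (SE), adjusted p = 0.000427. It passed the threshold under all 17 alternatives, with the largest adjusted p at 0.00497 (1 weight per group). Endothelial, stromal and macrophage cells also express this gene. The endothelial markers summed to 8096 to 12258 in B-ALL and 11188 to 11755 in Pax5 KO, the stromal markers to 4186, 5468, 1755 and 25088 in the 4 leukaemias and 1154 to 1405 in Pax5 KO, and the macrophage markers to 8277, 11735, 9176 and 59388 and 1254 to 1516. The stromal and macrophage sums, like Epas1, were higher in all 4 leukaemias than in Pax5 KO. The endothelial sums of the 2 groups overlapped. Yet 3 of 6 tested endothelial markers were higher and 0 were lower (median log2 difference 1.80), against 17.9% and 21.2% of all genes. The part of these cell types in Epas1 was not tested.

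Of the 10 genes of HIF subunits and oxygen sensing, Epas1 was the 1 higher gene, 5 were lower and 4 did not pass. The shares over all genes were 17.9% higher and 21.2% lower. The higher count was 2 with DESeq2 or without recipient 1302. The lower count was 0 to 2 without any 1 Pax5 KO library, 1 with edgeR, and 3 with TMM factors, with DESeq2 or without recipient 1301. Hif1an, an oxygen-dependent inhibitor, read 448, 785, 1115 and 862 against 1378 to 1543 (-0.92, adjusted p = 0.0193), a call lost without Pax5 KO replicate 1 or 2 (adjusted p = 0.0553 and 0.0522). Of 31 hypoxia-response and glycolysis genes, 4 were higher and 9 were lower, against 17.9% and 21.2% of all genes. The lower count was 4 or 5 without Pax5 KO replicate 2, 3 or 4. Slc2a1, the glucose transporter, Kdm3a, a hypoxia-induced demethylase, and Hk1, the first enzyme of glycolysis, fell, with log2 differences of -1.17, adjusted p = 0.00352, of -1.16, adjusted p = 0.00129 and of -0.67, adjusted p = 0.00358. Higd1a, a mitochondrial hypoxia-induced protein, rose by 0.78, adjusted p = 0.00656.

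Many genes of the G2 and M phases of the cell cycle were lower in the leukaemias. Of 28 G2/M genes 19 were lower and 1 was higher (median -0.70), against 21.2% and 17.9% of all genes. The lower genes were led by the mitotic kinesins and scaffold proteins Kif23 (-1.47, adjusted p = 0.000381), Cenpe (-1.53, adjusted p = 0.00231) and Anln (-0.71, adjusted p = 0.00358). Top2a, the topoisomerase of dividing cells, was with them (-0.89, adjusted p = 0.00251). The lower count was 14 with TMM factors, 13 with edgeR and 13 without any 1 Pax5 KO library, and none was higher without any 1 Pax5 KO library or recipient 1300. Of 27 S-phase genes, 6 were higher and 8 were lower, against 17.9% and 21.2% of all genes. The lower count was 2 or 3 without Pax5 KO replicate 2, 3 or 4, 4 without recipient 1300 or 1308, and 3 with edgeR. Tyms, the thymidylate synthase, read 7798, 13257, 8399 and 9749 in B-ALL against 3740.4 to 3953 (1.32 ± 0.17 (SE), adjusted p = 0.000795), and Ccne2, a cyclin of the G1/S transition, rose by 1.30, adjusted p = 0.00618. In bulk RNA, fewer cells of a kind and less RNA per cell cannot be told apart.

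Most ribosomal protein genes rose: 63 of 72 were higher and none was lower, with a median of 0.87. Rps27 read 35609.6, 36439.5, 25187 and 34925 in B-ALL against 10796 to 12357 (1.49 ± 0.14 (SE), adjusted p = 0.000276), with 1302 the lowest leukaemia. Many of these genes have near-identical pseudogene copies, as Hba-a1 and Hba-a2 are near-identical to each other, so the split of reads between copies is uncertain. Oxidative phosphorylation genes followed in part, with 14 of 33 higher and 2 lower, against 17.9% and 21.2% of all genes. The higher count of this list was 9 without Pax5 KO replicate 1, 2 or 3. Cox4i1, a subunit of the terminal oxidase, rose by 1.04, adjusted p = 0.00217, while Sdha, the catalytic subunit of complex II, fell, with log2 difference of -0.74, adjusted p = 0.00377.

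Interferon-response genes were higher in 17 of 29 cases and lower in none (median 1.41), against 17.9% and 21.2% of all genes. Oasl1 read 448, 1621, 1428 and 759.7 in B-ALL against 27.1 to 44.8 in Pax5 KO (4.67 ± 0.43 (SE), adjusted p = 0.00022). Isg15, a ubiquitin-like protein induced by interferon, read 692, 1464, 974 and 2596 against 187 to 219 (2.67 ± 0.36 (SE), adjusted p = 0.00104), and Gbp2, a guanylate-binding protein, read 684, 2686, 3141 and 2025 against 146 to 183 (3.42, adjusted p = 0.000737). Recipient 1300 was the lowest leukaemia for all 3 genes, and no value overlapped Pax5 KO.

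In a list of the glucocorticoid receptor and genes of glucose and energy supply, 3 of 10 tested genes were higher, 3 were lower and 4 did not pass (median -0.27). Over all genes 17.9% were higher and 21.2% lower. Nr3c1, the receptor, read 5169.7, 3054, 3603 and 4814 against 2261 to 2593 (0.75, adjusted p = 0.0107), Tsc22d3, its target also known as GILZ, read 5605, 10379, 16636 and 6839 against 1787 to 1934 (2.30 ± 0.30 (SE), adjusted p = 0.000867), and Txnip, an inhibitor of glucose uptake, rose by 1.72, adjusted p = 0.00518. Without recipients 1300 and 1308 the differences were 0.46 for Nr3c1 and 1.12 for Txnip. Igf1r, the receptor of insulin-like growth factors, fell, at 63.1, 25.8, 4.96 and 62.3 against 469.8 to 648 (-4.26, adjusted p = 0.00245). Among 16 BCL2 family genes 5 were higher and 3 were lower, and among 17 p53 targets none was higher and 5 were lower, against 17.9% higher and 21.2% lower of all genes. With TMM factors, edgeR or DESeq2, 2 p53 targets were higher. Without any 1 Pax5 KO library the lower counts were 1 of the BCL2 family and 2 of the p53 targets, and without Pax5 KO replicate 1, 2 or 3 the higher count of the BCL2 family was 3. Cdkn1a, the cell-cycle inhibitor p21, read 744, 2032, 438 and 904 against 3479 to 4342 (-2.14, adjusted p = 0.00378).

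The largest rises of the whole table were genes of red cells and macrophages. Of the 12 genes with the largest rise under the naming rule, Hbb-bs, Hba-a1, Hba-a2 and Alas2 belong to haemoglobin synthesis, C1qa, C1qb and C1qc encode complement C1q of macrophages, and Slc40a1 encodes the iron exporter of macrophages. Hbb-bs read 242008, 24039, 18622 and 562909 in recipients 1300, 1301, 1302 and 1308 and at most 2.17 in Pax5 KO, so 1308 and 1300 were the highest (15.79 ± 1.07 (SE), adjusted p = 6.46e-05). C1qc read 844, 1124, 820.0 and 5579.8 in B-ALL and 0 in every Pax5 KO library, at least 882-fold higher with 3 reads per library allowed. Vcam1, an adhesion molecule of marrow macrophages and stroma, read 1473, 2211, 2072 and 7132 against 3.29 to 13.7 (8.22 ± 0.57 (SE), adjusted p = 5.34e-05). Cd38, Apol11b and Rnase12 were also among the 12. Rnase12, a ribonuclease family member, was lowest in 1308, at 20569.8, 27465, 28927 and 4058 against 11.4 to 27.9 in Pax5 KO (9.55 ± 0.61 (SE), adjusted p = 4.27e-05).

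Markers of other cell types were therefore summed in each library. Of 11 tested erythroid markers 7 were higher and 1 lower, of 13 macrophage markers 11 were higher, and of 8 stromal markers 7 were higher and 1 lower. Over the 17 alternatives the higher counts were 5 to 10, 8 to 12 and 3 to 8. Of 17 granulocyte and monocyte markers, 3 were higher (2 to 8 over the alternatives) and 2 lower, against 17.9% and 21.2% of all genes. Erythroid markers summed to 422236, 48486, 40886 and 1083708 in the 4 leukaemias and 19951 to 22355 in Pax5 KO. Macrophage markers summed to 8277, 11735, 9176 and 59388, against 1254 to 1516, and granulocyte and monocyte markers to 170916, 17384, 9295 and 212509, against 12056 to 12786. Recipient 1308 was the highest for all of these and for plasmacytoid dendritic cell and stromal markers, and 1300 was next for red cell and granulocyte markers, for which 1301 and 1302 were the lowest.

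The hepatocyte list rose through Trf alone (20845, 22910.2, 12112 and 10927 against 402 to 465), which encodes transferrin, and 7 of its 10 members were at 0 in all 4 leukaemias. Of 16 tested T-lineage markers 8 were higher, among them Lck, a kinase also made by early B cells, at 7049, 13799, 5002 and 6363 against 2327 to 2404 (1.65, adjusted p = 0.00238), and Cd3e, a chain of the T-cell receptor complex, at 10.5, 50.5, 128 and 834 against 0 to 3.43 (5.94, adjusted p = 0.00639, or 3.35 with 10 added to each value). In the T-lineage list 1 marker was lower, and the higher count was 4 or 5 without any 1 Pax5 KO library. The shares over all genes were 17.9% higher and 21.2% lower. NK and innate lymphoid markers were higher in 3 of 11, endothelial markers in 3 of 6, megakaryocyte and mast-cell markers in 1 of 4 and plasmacytoid dendritic cell markers in 1 of 13, against 17.9% of all genes. Over the alternatives these 4 counts ranged from 2 to 5, 0 to 5, 0 to 2 and 0 to 5. The leukaemic cells had been sorted on GFP, and whether RNA of other cells contributed to any gene above was not tested. Without the 2 recipients highest in red cell markers, the 5 B-lineage lists together held 37 higher and 17 lower genes. The whole comparison without them held 2557 higher and 3377 lower genes.

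**Figure D5:**
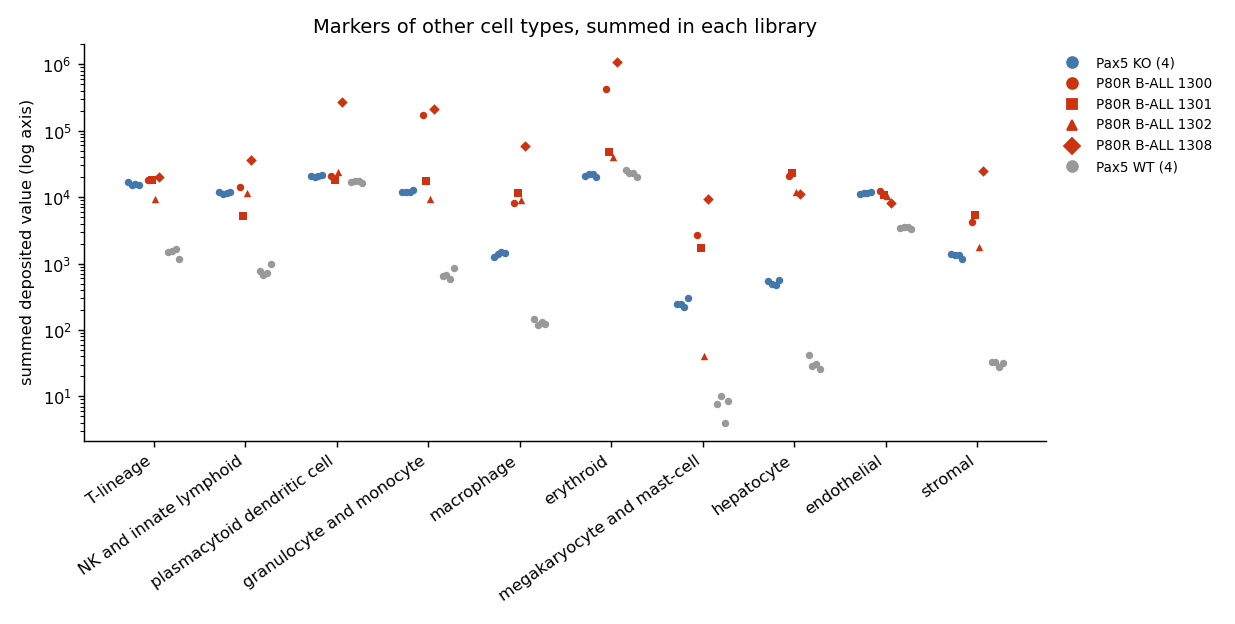
Summed deposited values (log axis) of the markers of 10 other cell types in every library of the 3 groups, with marker shapes for the 4 recipients. Recipients 1308 and 1300 stand highest for erythroid and granulocyte and monocyte markers, and 1308 alone is high for plasmacytoid dendritic cell markers.

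The largest falls, beside Hmga2, Lin28b, Cd34, Hoxa7 and Egr1, included Ccn3, a secreted regulator of stem cells, and Ephb2, an ephrin receptor. Ccn3 read 0, 0, 0 and 5.54 in B-ALL, 1606 to 1789 in Pax5 KO and 456 to 502 in Pax5 WT (-10.07 ± 0.65 (SE), adjusted p = 4.13e-05). Ephb2 read 0, 0, 0 and 65.0 against 919.6 to 1086 (-8.44, adjusted p = 0.00171), with its only reads in 1308. Kdm5b, a histone demethylase, read 46.0, 3.69, 14.9 and 115 against 2921 to 3329 (-6.95 ± 0.84 (SE), adjusted p = 0.000666). Klhl30, Bahcc1, Ptger3 and Pdia5 completed the 12, with log2 differences of -8.18, -8.13, -7.26 and -6.76. In each of these 7 genes every leukaemia was below every Pax5 KO library, which the naming rule required.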

How the data were processed

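RNA-seq was analysed from 12 libraries of sorted mouse cells, 8 of which enter the comparison. Per the labels' protocols, the RNA came from RNeasy plus micro columns and the SMART-Seq v4 kit, which covers whole transcripts, gave the libraries. The submitters' processing notes name fastp, the aligner STAR (2.7.8a), featureCounts and the build mm39. Annotation, strand setting and the handling of multiply matching reads: not given in the sources used here. Deposited signal values are whole read counts that the authors divided by 1 factor per library, and in the 8 libraries 100% of them came out as whole reads within a tolerance of 0.001. The recovered reads give the depth of each library (24914250 to 43513852 in the 8 libraries), which sets the counting error of low values; intervals from 3 reads cover counting error only. Of 21885 genes, 21780 matched a symbol in GENCODE M21, used for names only.

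Samples were grouped by their labels. The analysed quantity was log2(value + 1), for genes reaching 10 in 4 or more of the 8 libraries, with limma 3.58.1 in R 4.3.3 (trend and robust options, two-sided), Benjamini-Hochberg over all genes and a threshold of 0.05. A fold on this scale understates changes of low genes. Fits with edgeR 4.0.16 and DESeq2 1.42.0 on the recovered reads of the same 8 libraries, with TMM factors, other filters, another pseudocount, and without single libraries were alternatives. The fit was tested on simulated data with the spread measured in each group, where its share of false calls was above the threshold. The members and the 32 gene lists were chosen with earlier results of these data known. Named genes were Pax5, Ebf1, Flt3, Epas1 and Il7r, up to 12 per direction with the largest difference, groups apart and a mean of at least 500.0 in the higher group, up to 4 per list with the smallest p, and any tested member of the 5 B-lineage lists. Some genes that the rule names are not reported here. The labels give no batch. Promoter windows and their coordinates are from RefSeq on GRCm38.p6, not mm39.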

Additional observations from a re-analysis of the deposited data

Results flagged for a closer look

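In a group of 4, a library was singled out where its gap to the nearest other library, as a share of the group's range on the log2 scale, exceeded Dixon's critical value for 4 samples, which chance alone gives in about 5% of groups. Both groups of each gene named here were screened unless every value was under 10, and 115 of these genes were tested. In this screen 12 values met the rule. A screen of this size gives such values by chance alone, so each is only a value to look at again. In recipient 1308, H2-Ab1 read 69641, C1qc 5579.77, Ephb2 65.0 and Lin28b 13.8, each the highest of the 4 leukaemias; Ephb2 and Lin28b had 0 reads in the other leukaemias. In recipient 1302, Plcg2 read 16520.4 and Igf2bp3 4117, both the highest, and Rps27 25187, the lowest. Mef2c read 8697 in recipient 1301, the lowest of the 4. Among the Pax5 KO libraries, Ebf1 read 6639 in replicate 1 and C1qb 10.1 in replicate 4, the highest of the 4 (C1qb was at 0 in the others), Nlrc4 read 50.1 in replicate 2, also the highest, and Gbp2 read 146 in replicate 4, the lowest. Each of these genes was on the same side of the threshold when that library was left out.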

How the results depend on the processing

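No paired analysis was possible because the Pax5 KO libraries are numbered 1 to 4 and the leukaemias carry recipient numbers, so the groups share no replicate number. The number of lower genes ranged from 1592 to 2934 when single libraries were left out, lowest without Pax5 KO replicate 3 (1592) and replicate 2 (1597). The median log2 difference over all genes was -0.12 on the deposited scale, -0.044 with TMM factors, 0.056 with edgeR, 0.068 with DESeq2 and -0.0315 without a filter on low values. The median of the 5 B-lineage lists, 0.34, was 0.61 with edgeR and 0.62 with DESeq2. Ebf1, Rag2 and Igll1 changed sign when some single libraries were left out, with no adjusted p under 0.503 in those fits: Ebf1 ranged from -0.30 to 0.47, Rag2 from -0.48 to 0.66 and Igll1 from -0.084 to 0.58. Without recipients 1300 and 1308, Ebf1 (0.65) and Rag2 (1.12) passed the threshold. Of 1950.0 values of 115 named genes under 17 alternatives, 1900.0 kept their direction and side of the threshold, 32 no longer passed, 9 newly passed and 9 changed sign; the cause was not tested. The 6 genes whose call was lost in some alternative are Pax5, Irf4, Flt3, Ltb, Hif1an and Stat5a. Low genes are limited by depth: a gene at 0 allows up to 3 reads per library, a value of about 2.17 to 4.15.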

Other observations

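Other genes were among those with the smallest p-values and were chosen after their values were seen. Gm525 read 23124, 45549.7, 13217 and 35408 in recipients 1300, 1301, 1302 and 1308, against 51.4 to 63.2 in Pax5 KO and 5.00 to 20.8 in Pax5 WT (limma log2 difference 8.86 ± 0.34 (SE), adjusted p = 4.54e-06). Ly86, a partner of the surface receptor Cd180 of B cells and myeloid cells, read 13108, 16829.8, 14399 and 28249 against 311 to 351 in Pax5 KO and 3.00 to 10.4 in Pax5 WT (5.68 ± 0.23 (SE), adjusted p = 4.54e-06). For both genes every leukaemia lay above every fetal library.

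Nlrc4, an inflammasome sensor, read 835, 807, 861 and 703 against 32.6 to 50.1 in Pax5 KO (4.39 ± 0.25 (SE), adjusted p = 2.65e-05). Ctsk, a cathepsin of osteoclasts, had 0 reads in every Pax5 KO and Pax5 WT library and read 337, 819.6, 536 and 653 in B-ALL, at least 247-fold higher with 3 reads per library allowed. Ibsp, a bone matrix protein, likewise had 0 reads in every fetal library and read 339, 345, 283 and 888, at least 196-fold higher.

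In the other direction, Ptk7, a receptor with an inactive kinase domain, read 13.1, 18.5, 13.6 and 19.4 in B-ALL, 1320.2 to 1516 in Pax5 KO and 311 to 459.7 in Pax5 WT (-6.42 ± 0.26 (SE), adjusted p = 4.54e-06). Smo, the signal transducer of the Hedgehog pathway, read 26.3, 14.8, 7.44 and 29.1 against 1150.4 to 1252 and 118 to 249 (-6.05 ± 0.42 (SE), adjusted p = 5.34e-05). Slc44a5, a choline transporter-like protein, had 0 reads in all leukaemias and all Pax5 WT libraries and 282 to 399 in Pax5 KO, at least 86.7-fold lower in B-ALL. Acadm, an enzyme of fatty acid oxidation, read 3433, 2768, 2859 and 3148 in B-ALL against 12191 to 15126 in Pax5 KO and 1387 to 1564 in Pax5 WT (-2.16 ± 0.12 (SE), adjusted p = 2.58e-05). The leukaemias and the Pax5 KO libraries did not overlap for any of these genes, which were picked for their small p-values in this same comparison.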
